A study of Caenorhabditis elegans with 6 samples.

Results

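A set of 8 genes of the heterochronic pathway was followed, lin-14, lin-28, lin-29, lin-41, lin-42, lin-46, hbl-1 and daf-12. Their probes were found by name, by matching each symbol to the sequence names that the arrays give for their probes. Of the 8 genes, 7 had a probe, which made 15 of 22490 probes and 7 of 17889 named genes on the array. There were 4 probes each for lin-28 and daf-12, 3 for lin-14, and 1 each for lin-29, lin-42, lin-46 and hbl-1. No probe carried the sequence name of lin-41, which was not analysed here.

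The heterochronic genes order the cell divisions and the cuticle of the worm in time, so that each larval stage runs its own programme once. Proteins that act early, such as LIN-14, LIN-28 and HBL-1, hold back later fates and are switched off as microRNAs of the lin-4 and let-7 families accumulate. LIN-29, a zinc-finger protein of the EGR family, then drives the hypodermis from the larval to the adult state, while LIN-42, a relative of the clock protein Period, is known for transcripts that rise and fall with each molt.

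Worms of the wild-type strain N2 of Caenorhabditis elegans were kept at 24 °C, either as controls or exposed to a pair of organophosphates given together. These were CPF (chlorpyrifos) at 0.5 mg/L and DZN (diazinon) at 1 mg/L, called the mixture here. Both groups were therefore N2 at the same temperature, and by the study's methods the controls received the solvent acetone and each sample pooled worms of several dishes. RNA of the mixture and of the control was hybridised to the same two-colour array, on 3 arrays with the mixture in Cy5 and on 3 with the mixture in Cy3, which gave 6 log2 ratios of mixture over control per gene. Arrays are named below by the dye of the mixture and the replicate number. The labels give an age of 72 h and larvae of the L3/L4 stage, whereas the methods give a shorter time and late L3, so the age at harvest was not settled. Pooled whole worms were measured, in which fewer cells of a type and less RNA per cell cannot be told apart.

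A reading was taken as well above background when the spot's median was over the local background median by more than 2 background SDs. At that limit 44.1 to 54.9% of probes were detected in the mixture and 47.9 to 58.1% in the control, against 0 to 0.162% of the 618 empty spots. On 1 array, Cy5 replicate 1, 6 of 48 print blocks (squares of 484 spots) correlated below 0.85 with the same spots on the other arrays. In 1 of these 6 blocks the correlation was 0.32 as deposited and 0.93 after a shift by 1 spot. The probes of hbl-1, lin-29 and lin-42 lay outside these blocks, and the brightest lin-28 probe lay in another of the 6, with a correlation of 0.70. The ratios of Cy5 replicate 3 stood furthest from those of the other arrays, with a mean correlation of 0.28.

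The timing genes fell into 3 kinds by their signal in the 2 channels. The transcript of lin-29 was detected in all 12 readings, 6 of the mixture and 6 of the control, at 8.42 background SDs or more. The transcripts of hbl-1 and lin-42 were dim, and they passed the limit in 11 and 9 of 12 readings. The early gene lin-14 gave 0 of 36 readings above the limit over its 3 probes, with a highest value of 1.32 background SDs. For lin-46, whose gephyrin-like protein acts downstream of lin-28, 0 of 12 readings passed, with a highest value of 0.56. For daf-12, the nuclear hormone receptor that reads the steroid dafachronic acid, 1 of 48 readings passed, at 2.79 background SDs in the control of Cy3 replicate 2. No fold change is given for lin-14, lin-46 and daf-12, since neither group was above background in 3 or more arrays.

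**Figure D1:**
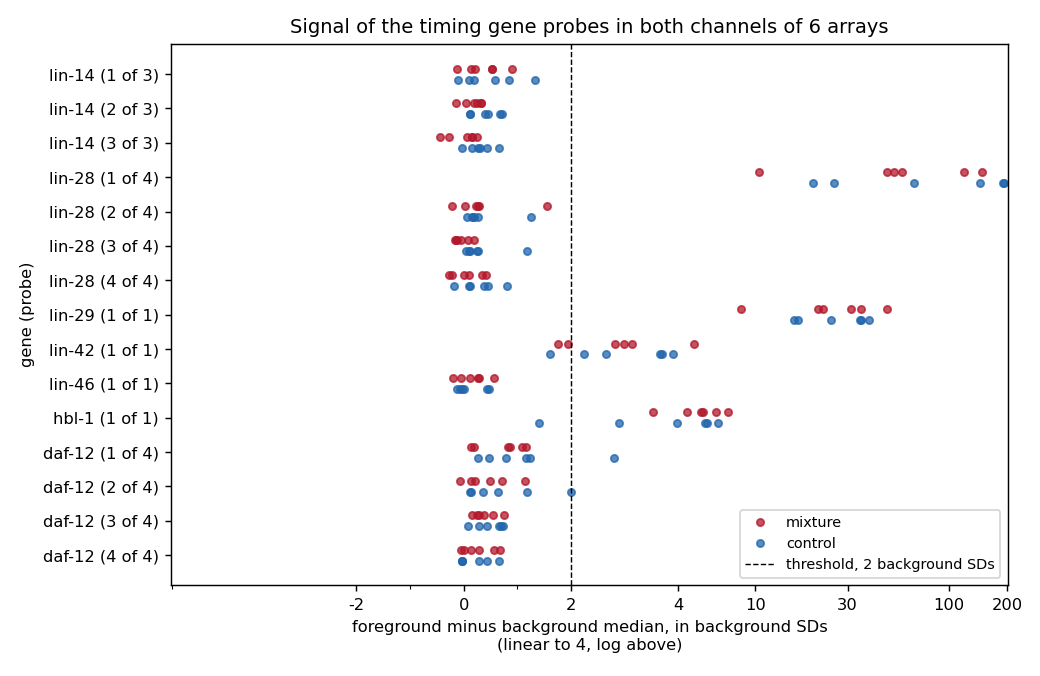
Signal of the 15 timing gene probes, as spot median minus local background median in units of the background SD (horizontal axis, linear to 4 and logarithmic above), for the mixture (red) and control (blue) channels of the 6 arrays, with a dashed line at the limit of 2. The probes of lin-29, 1 of the 4 lin-28 probes, and most readings of hbl-1 and lin-42 lie right of the line, while all readings of lin-14 and lin-46 lie left of it.

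The probes of lin-28, the RNA-binding protein that blocks let-7 maturation, did not give a single answer. All 12 readings of 1 probe were above the limit, and 0 of the 36 readings of the other 3 probes were. The lin-28 ratio below therefore rests on 1 probe that its fellow probes did not bear out, and whether that probe bound another transcript was not tested. No array carried worms of a known stage, and levels of different probes cannot be compared, so the levels of the timing genes give no stage for either channel. Transcripts of the adult collagen col-19, of yolk proteins and of most oocyte genes were detected in both groups, as given below, although the labels and methods name larval stages. The stage of the worms was not tested.

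Among the 7 genes with a probe, hbl-1 and lin-29 were higher in the mixture, lin-42 and lin-28 did not pass the test, and lin-14, lin-46 and daf-12 were too dim to give a fold. Calls were made with limma at a Benjamini-Hochberg adjusted p under 0.05 over 18999 genes and unnamed probes. By that rule 13.9% of all features were called, 6.74% higher and 7.13% lower, so that 2 of 7 genes stood against this background. Ratios of 1 sign on all arrays were seen for 3 of the 7 genes (hbl-1, lin-29 and lin-42), against 17.4% of all features. Among the 10098 features that passed the detection limit on 3 or more arrays in each group, 23.5% were called.

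The hbl-1 gene encodes a Hunchback-like zinc-finger protein that holds back later larval fates. Its net intensities, the spot median minus the background median, were 106 in the mixture and 90 in the control of Cy5 replicate 1, 175 and 56 in replicate 2, and 129 and 108 in replicate 3. With the mixture in Cy3 they were 144 and 109 in replicate 1, 171 and 108 in replicate 2, and 222 and 172 in replicate 3. The mixture was thus the brighter channel on 6 of 6 arrays before any normalization. After normalization the hbl-1 level was 7.50 to 8.29 in the mixture and 7.03 to 7.57 in the control on the log2 scale, so that the groups overlapped only slightly.

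The log2 ratios of hbl-1 were 0.44, 1.11 and 0.22 with the mixture in Cy5 and 0.52, 0.89 and 0.73 with the mixture in Cy3. Their mean was 0.65 ± 0.32 (SD, n = 6), a fold of 1.57 with a 95% interval of 1.29 to 1.91, and limma's adjusted p was 0.0173. The means of both dye orientations were close, 0.59 and 0.71. Leaving out Cy3 replicate 2 or Cy3 replicate 3 ended the call, with adjusted p of 0.0709 and 0.0738. It was also lost within the later of 2 slide series alone, where 4 arrays gave 0.47 with an adjusted p of 0.0750. The hbl-1 ratio was 0.23 in the authors' table (adjusted p = 0.134) and 1.07 with plain background subtraction (adjusted p = 0.139), and the methods' linear model gave an adjusted p of 0.126, so that none of these 3 alternatives made the call.

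For lin-29 the normalized log2 levels were 10.29, 10.58 and 9.50 in the mixture and 9.51, 9.86 and 9.18 in the control on the arrays with the mixture in Cy5. With the mixture in Cy3 they were 9.52, 8.92 and 9.83 in the mixture and 9.30, 8.77 and 9.60 in the control. The mixture was above the control on each array, although the levels of both groups overlapped between arrays. The log2 ratios of lin-29 were 0.78, 0.72 and 0.32 with the mixture in Cy5 and 0.22, 0.16 and 0.22 with the mixture in Cy3. Their mean was 0.40 ± 0.28 (SD, n = 6), a fold of 1.32 with a 95% interval of 1.15 to 1.52 and an adjusted p of 0.0230 by limma.

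The rise of lin-29 depended on the normalization. Before it, the net intensity was higher in the mixture on 3 of 6 arrays, 1089 against 829, 1315 against 935 and 649 against 542, all with the mixture in Cy5. On the arrays with the mixture in Cy3 it was lower, 539 against 592, 296 against 432 and 752 against 997. The orientation means were 0.61 and 0.20 after loess, and the gene's dye term did not pass the test (adjusted p = 0.640). With each array centred on its median in place of loess, the ratio was 0.08 with an adjusted p of 0.442. That centring also put the median of all features above background at -0.24, against 0.00 with loess. Leaving out any of the arrays other than Cy5 replicate 3 ended the call, with adjusted p from 0.0710 to 0.0891. The file headers name 1 mixture extract on Cy5 replicate 2 and Cy3 replicate 1, and with these averaged the lin-29 call ended as well (0.39, adjusted p = 0.0524).

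**Figure D2:**
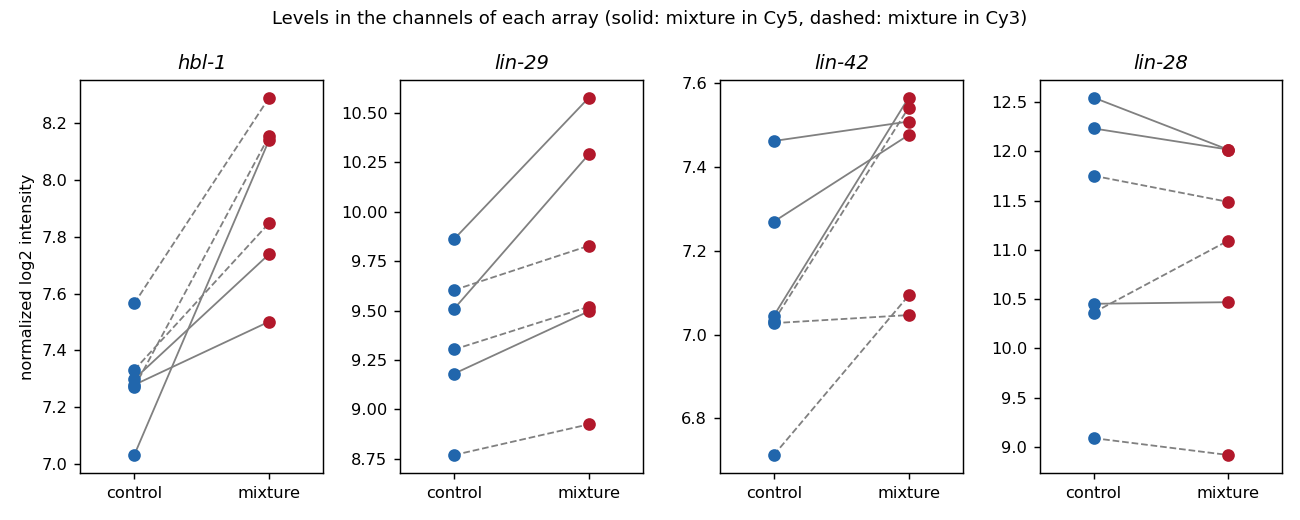
Normalized log2 intensity of hbl-1, lin-29, lin-42 and lin-28 in the control (blue) and mixture (red) channel of each array, joined by a line that is solid where the mixture was in Cy5 and dashed where it was in Cy3. The vertical scale differs between genes. All 6 lines rise for hbl-1, lin-29 and lin-42, and those of lin-28 run both ways.

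The transcripts of lin-42 were close to the limit of detection, above it on 4 arrays in the mixture and 5 in the control, with net intensities of 53 to 136 over both channels. The log2 ratios of lin-42 were 0.21, 0.05 and 0.52 with the mixture in Cy5 and 0.02, 0.51 and 0.38 with the mixture in Cy3. All 6 were above 0, but 2 of them were 0.05 or less. The mean of 0.28 ± 0.22 (SD, n = 6), with a 95% interval of 0.05 to 0.51, did not pass (adjusted p = 0.104, limma). Before normalization the mixture was the brighter channel on 3 of 6 arrays.

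The 1 bright probe of lin-28 ranged from 369 to 4101 in net intensity in the mixture and from 668 to 6935 in the control. Its log2 ratios were -0.53, -0.21 and 0.02 with the mixture in Cy5 and 0.73, -0.27 and -0.17 with the mixture in Cy3. The mean was -0.07 ± 0.43 (SD, n = 6), with an interval of -0.41 to 0.26 and an adjusted p of 0.813. Before normalization the mixture was the brighter channel on 1 of 6 arrays, with a mean log2 ratio of -0.42. Without the value from the poorly matching print block the ratio was 0.00 on 5 arrays, with median centring -0.34 (adjusted p = 0.173), and without Cy3 replicate 1 it was -0.23 (adjusted p = 0.247). The ratio of lin-28 at this probe passed the test under none of the alternatives run, and its size depended on the normalization.

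**Figure D3:**
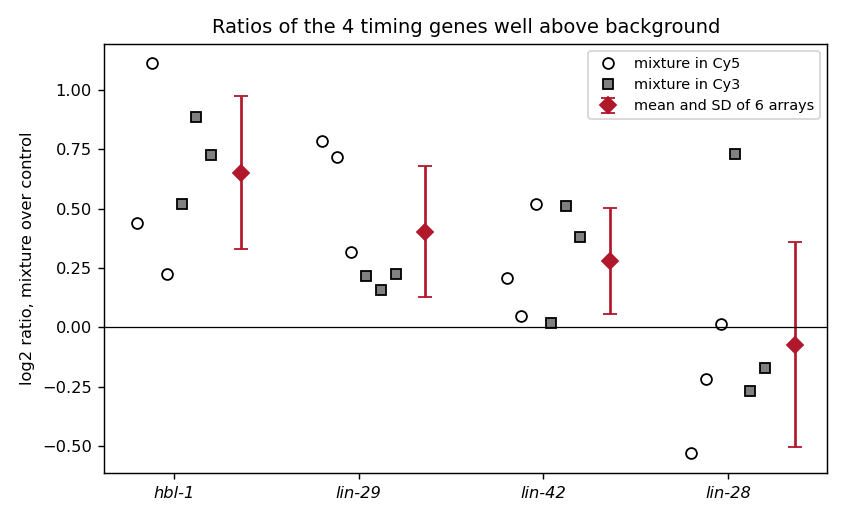
Log2 ratio of mixture over control (vertical axis) of the 4 timing genes well above background, for the arrays with the mixture in Cy5 (open circles) and in Cy3 (grey squares), with the mean and SD of 6 arrays (red diamond). The ratios of hbl-1 lie between 0.22 and 1.11 in both orientations, and those of lin-29 are larger in Cy5 than in Cy3.

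The genes whose ratios followed the same pattern over the 6 arrays were sought among 6652 genes well above background on all arrays. The closest to lin-29 were let-4, an extracellular protein with leucine-rich repeats, with Pearson's r of 0.998, then Y57G7A.6 with 0.989 and ttr-59 with 0.986. Those closest to hbl-1 were spp-15 with 0.994, clec-187 with 0.978 and F32B5.6 with 0.973. These are descriptions over 6 points that share arrays and dyes, and of the 6 genes only let-4 (0.78, adjusted p = 0.0116) and clec-187 (0.52, adjusted p = 0.0162) were called, both higher.

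Among other genes known to work with the timing pathway, calls went both ways. Of 12 such genes on the array, 10 were above background, 3 were called higher and 1 lower. Of all features 6.74% were called higher and 7.13% lower, and of those above background 23.5% were called in either direction. The median ratio over the 12 was 0.12 against 0.00 for all features. The gene puf-9, a Pumilio-family RNA-binding protein needed for the repression of hbl-1, rose by 0.48 ± 0.21 (SD, n = 6, adjusted p = 0.0180). The zinc-finger gene sea-2, which acts on lin-28, rose by 0.55 ± 0.37 (adjusted p = 0.0150). The nuclear receptor nhr-25, needed for molting and for seam cells, rose by 0.76 ± 0.44 (adjusted p = 0.0220). The Makorin gene lep-2, a timing gene of the male tail, fell by 0.48 (adjusted p = 0.0246). Each of these 4 calls ended when Cy3 replicate 2 or Cy5 replicate 1 was left out, with a highest adjusted p of 0.0993 over all arrays left out. The partner of LIN-29, mab-10, and blmp-1 were above background on 0 of 6 arrays in both groups.

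The microRNA machinery, through which lin-4 and let-7 are made and act, had calls in both directions as well. Of 17 genes on the array, 14 were above background, 2 were called higher and 3 lower, with a median of -0.13. Of the 14 genes above background 4 were called, near the 23.5% of all such features. The Argonaute gene alg-2 rose by 0.33 ± 0.08 (SD, n = 6, adjusted p = 0.0220), and ain-1, a GW182-like partner of Argonautes, rose by 0.48 ± 0.25 (adjusted p = 0.0214). The nuclear processing enzyme gene drsh-1 fell by 0.35 (adjusted p = 0.0243), a call that ended without its value from a poorly matching print block (adjusted p = 0.0537). The helicase gene cgh-1, which is also strongly expressed in the germ line, fell by 0.89 (adjusted p = 0.0148). The remaining lower call, pash-1, was above background in the mixture on only 2 arrays. The cgh-1 call ended without Cy3 replicate 2 or replicate 3 (highest adjusted p = 0.0601), and those of alg-2, ain-1 and drsh-1 without any array but Cy5 replicate 3 (highest adjusted p = 0.0861). With median centring alg-2 was at 0.06 and ain-1 at 0.17, and neither passed (adjusted p = 0.598 and 0.195), nor did puf-9 at 0.16 and sea-2 at 0.22 (adjusted p = 0.184 and 0.201).

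Of 9 genes of steroid synthesis and signalling around DAF-12, 5 were above background and 1 of these was called, a share near the 23.5% of all such features. It was emb-8, the reductase that serves cytochrome P450 enzymes, at 0.55 ± 0.22 (SD, n = 6, adjusted p = 0.0101), and 6 of 6 ratios were above 0. It kept its call with each array left out (highest adjusted p = 0.0465), but with median centring emb-8 was at 0.30 (adjusted p = 0.0762). A further gene, ncr-2, was called lower, but was above background on 0 arrays in the mixture. The cytochrome P450 gene daf-9, which makes the hormone of DAF-12, was above background on 0 of 6 arrays in both groups, as were hsd-1 and dhs-16. Of 12 seam cell genes 6 were above background, and 1 was called, again no more than that share. This gene, eff-1, the fusogen of hypodermal cells, was higher at 0.74 ± 0.58 (adjusted p = 0.0478) by 1 of its 6 probes, a call that ended when any array but Cy5 replicate 3 was left out (highest adjusted p = 0.170).

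**Figure D4:**
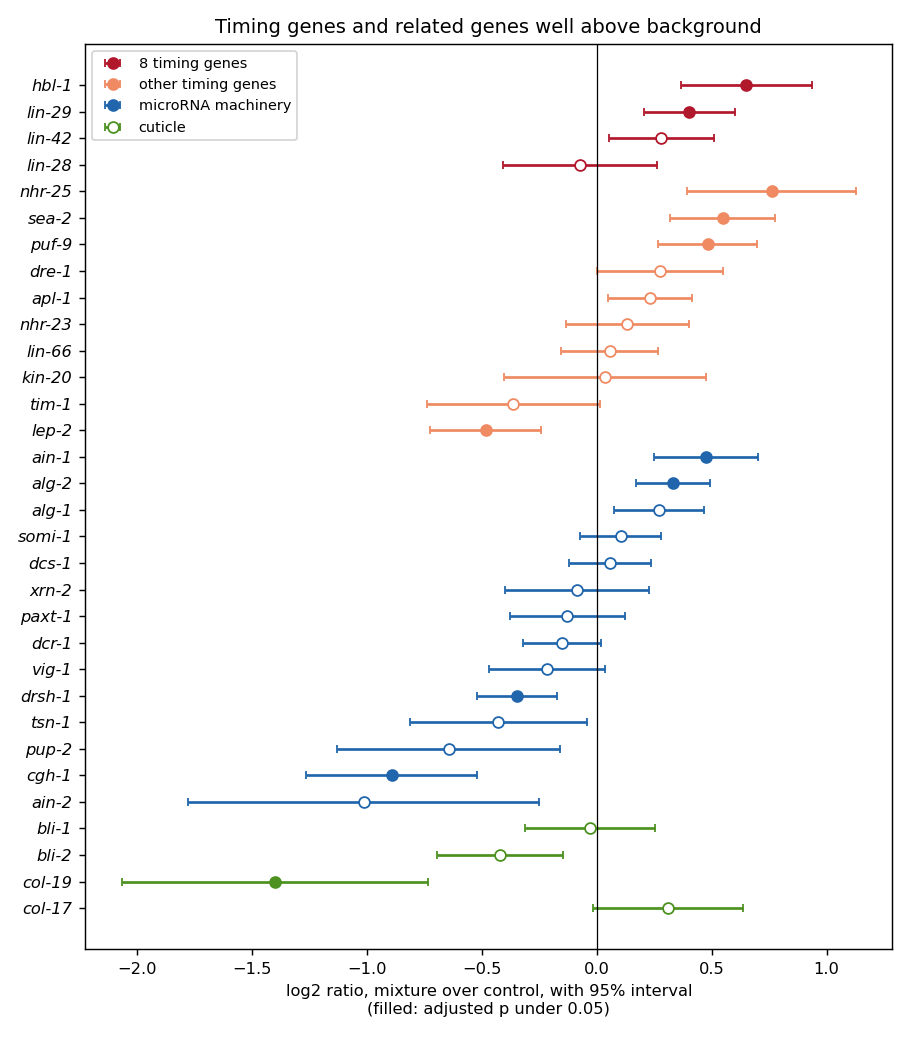
Log2 ratio of mixture over control with its 95% interval (horizontal axis) for each gene well above background among the timing genes (red), other genes of the timing pathway (orange), the microRNA machinery (blue) and larval and adult cuticle genes (green), filled where the adjusted p was under 0.05. The timing genes hbl-1 and lin-29 lie right of 0, and the adult collagen col-19 is the lowest of all genes plotted.

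The adult collagen col-19, which LIN-29 activates at the larval-to-adult switch, was detected in both groups and was lower in the mixture. Its log2 levels were 7.02, 8.84 and 12.18 in the mixture and 8.29, 11.60 and 12.74 in the control with the mixture in Cy5. With the mixture in Cy3 they were 12.39, 12.16 and 10.96 in the mixture and 13.06, 13.19 and 13.05 in the control. The level of col-19 was lower in the mixture on 6 of 6 arrays, with ratios from -0.57 to -2.77, and varied widely between arrays. The mean was -1.40 ± 0.86 (SD, n = 6, adjusted p = 0.0214), and it was -1.67 with median centring (adjusted p = 0.0138). The col-19 probe lay in a poorly matching block of Cy5 replicate 1, and without that value the mean was -1.46 (adjusted p = 0.0356). The call was lost without that whole array (adjusted p = 0.0559) and without Cy3 replicate 2 or replicate 3 (highest adjusted p = 0.0872).

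So lin-29 was called higher and its known target col-19 lower, in the same pooled worms, but the lin-29 call depended on the normalization. With median centring lin-29 was at 0.08 and did not pass (limma, adjusted p = 0.442), while col-19 stayed lower. Of the other adult cuticle genes bli-2 was at -0.42 ± 0.51 (adjusted p = 0.0545) and bli-1 at -0.03, and with median centring bli-2 passed at -0.68 (adjusted p = 0.0138). The larval collagen col-17 was at 0.31 ± 0.47 (adjusted p = 0.197), and the other larval genes, col-2 and cut-1, were above background on 0 arrays.

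Molting genes, whose transcripts rise and fall within each larval stage as those of lin-42 do, were called in 1 direction. Of 13 on the array, 12 were above background, 6 were called higher and 0 lower. The list median was 0.48 against 0.00 for all features. Of all features 6.74% were called higher, and of the 10098 above background 1186 were. The nhr-25 call is counted here and also among the other genes of the timing pathway. Examples were fbn-1, a fibrillin-like matrix gene, at 0.98 ± 0.64 (SD, n = 6, adjusted p = 0.0185), mlt-11, a protease inhibitor gene needed for ecdysis, at 0.66 ± 0.49 (adjusted p = 0.0190), and noah-2 at 0.62 ± 0.34 (adjusted p = 0.0155). The molting regulator nhr-23 was at 0.13 and did not pass (adjusted p = 0.526), and mlt-10, a gene of the molt, was at -0.26 (adjusted p = 0.481). With median centring 3 of the higher calls were made, and with plain background subtraction 0. Leaving out Cy5 replicate 2 or Cy3 replicate 2 gave 1 higher call, and leaving out Cy3 replicate 3 gave 0.

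Among transcripts of germ cells and of yolk, the calls were all lower. Against 7.13% of all features called lower, 17 of 18 oocyte genes were, with a median of -1.37. The yolk receptor gene rme-2 was at -1.81. Of the 10098 features above background, 1185 were called lower. The lists of this paragraph, like the molting list, were chosen with earlier results of these data known, so their counts are descriptions. All 6 yolk protein genes were called lower, with a median of -1.64, and each was above background on 6 of 6 arrays in both groups. Of 15 sperm genes 7 were called lower (median -0.60), though the msp genes among them are near-identical copies that probes may not tell apart, and of 18 germ line genes, all above background, 4 were (median -0.41), near the 23.5% of such features called. With plain background subtraction there were 0 lower calls in each of these 4 lists, and with no background correction 11 oocyte and 2 sperm genes were called. The germ line list had 14 lower calls with median centring and 12 without Cy5 replicate 3, and the sperm list had 11 without Cy5 replicate 3 and 0 without Cy3 replicate 2. With all arrays none of these genes was called higher. Of 11 embryo genes on the array 3 were above background and 1 was called, beside the 23.5% of such features. This was end-3, lower at -0.72 (adjusted p = 0.0220), a call that ended when some single arrays were left out (highest adjusted p = 0.0795). The others, pal-1 at -0.74 (adjusted p = 0.0873) and elt-7 at 0.08 (adjusted p = 0.702), did not pass. Over arrays the oocyte median went from -0.26 (Cy5 replicate 3) to -2.33 (Cy5 replicate 2), where the hbl-1 ratio was lowest (0.22) and highest (1.11). Cy3 replicates 1, 2 and 3 had oocyte medians of -0.75, -1.29 and -1.49 with hbl-1 ratios of 0.52, 0.89 and 0.73. Cy5 replicate 1, the array with poorly matching print blocks, had an oocyte median of -1.86 with an hbl-1 ratio of 0.44. The lin-29 ratio was highest on Cy5 replicate 1 (0.78) and lowest on Cy3 replicate 2 (0.16). The part of germ cell number and of age at harvest in the ratios of hbl-1, lin-29 and the molting genes was not tested. Without Cy3 replicate 3, the oocyte list gave 1 lower call and the yolk list 1.

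**Figure D5:**
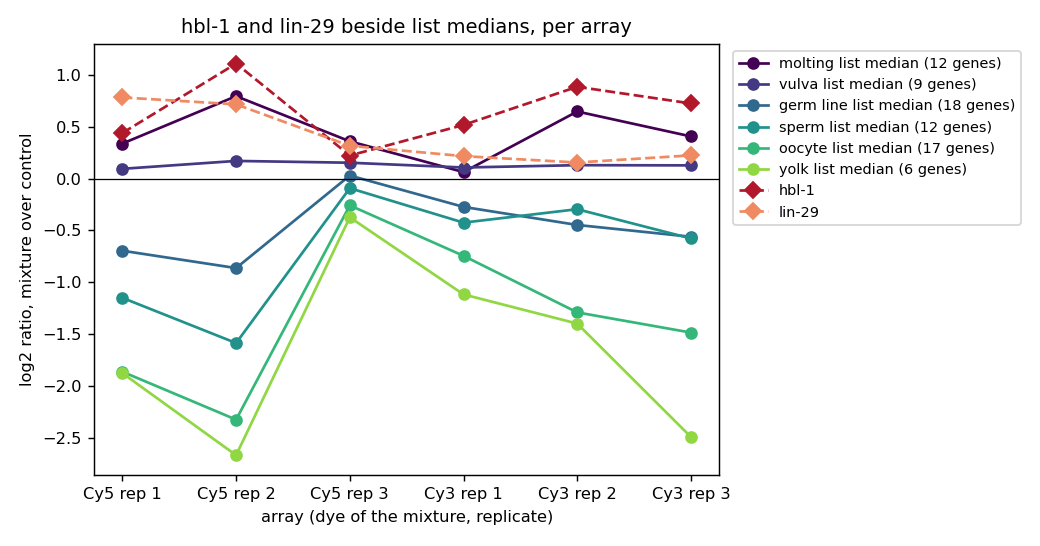
Log2 ratio of mixture over control (vertical axis) on each of the 6 arrays (horizontal axis, dye of the mixture and replicate) for hbl-1 and lin-29 (diamonds) and for the median of the molting, vulva, germ line, sperm, oocyte and yolk lists (circles, genes above background). The oocyte and yolk medians are below 0 on all 6 arrays and nearest to 0 on Cy5 replicate 3, and hbl-1, lin-29 and the molting median are above 0 on all 6.

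Genes of the vulva, which forms in the L3 and L4 stages under the control of the timing pathway, were called no more often than the 23.5% of all features above background. Of 18 on the array, 9 were above background, 1 was called higher and 0 lower, and the list median lay between 0.09 and 0.17 on the 6 arrays for the genes above background. The called gene was lin-1, an ETS transcription factor, at 0.45 ± 0.32 (SD, n = 6, adjusted p = 0.0459), and it was no longer called without the value from a poorly matching print block (adjusted p = 0.102). The Wnt effector bar-1 was at 0.44 ± 0.36 (adjusted p = 0.0681). The ligand genes lin-3 and apx-1 were at -0.27 and -0.56 (adjusted p = 0.127 and 0.0947). In a fit over all probes, 1 of the 4 lin-3 probes was called lower, though not the brightest. With median centring lin-3 and apx-1 were at -0.46 and -0.80 and passed (adjusted p = 0.0455 and 0.0357), while lin-1 was at 0.24 and did not (adjusted p = 0.131).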

How the data were processed

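The authors hybridised pairs of RNA samples to two-colour arrays and deposited scanner files with the spot intensity and local background of each channel, and the percent of saturated pixels (not used in a test), besides a table of normalized log2 ratios made with limma (3.2.3 in the submitters' processing notes). The deposited table ran as mixture over control on 6 of 6 arrays and served as an alternative only; how its values were scaled was not settled from the sources used here. Foreground medians were background-corrected by normexp (offset 50), normalized by loess within arrays with control spots at weight 0 and by Aquantile between arrays, in limma 3.58.1 (R 4.3.3). The brightest probe stood for each gene. The log2 ratios, turned to mixture over control, were fitted with a mixture term and a dye term per gene, and p-values were adjusted by Benjamini-Hochberg. In the text, SD is over arrays, and intervals are limma's 95% intervals. The number of arrays limits the precision.

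Genes were named from the sequence names in the scanner files, matched to RefSeq symbols and to the platform annotation. Members and gene lists were chosen with earlier results of these data known. From each list up to 4 genes above background with the smallest p were to be named; genes outside that rule, such as mlt-10, bli-1, pash-1, ncr-2 and those said to be below background, were chosen after their values were seen. The labels give separate replicates and the methods call them biological, but the file headers name 1 mixture extract on a pair of arrays, Cy5 replicate 2 with Cy3 replicate 1. The fit was tested on simulated data. Alternatives covered background correction, normalization, dye and batch terms, probe choice, arrays left out and the methods' own linear model, and the omission of poorly matching print blocks was added after seeing the data. No sequences are printed.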

Additional observations from a re-analysis of the deposited data

How the results depend on the processing

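Over 23 alternatives hbl-1, lin-29 and lin-42 kept their direction. hbl-1 was called in 17, lin-29 in 11, and lin-42 and lin-28 in 0. The 17 include the methods' linear model at an unadjusted p under 0.01. Both the 17 and the 11 count the slide series block and the fit without Cy5 replicate 3, which are the same fit. The lin-28 ratio turned positive with print-tip loess (0.0883), in the later slide series alone (0.0570) and without Cy3 replicate 2 (0.0184), with -0.23 to 0.02 over arrays left out. With all arrays 2636 features, 2 timing genes and 54 other listed genes were called. Plain background subtraction gave 92, 0 and 0, and hbl-1 was then at 1.07 (adjusted p = 0.139). No background correction left 33 other listed genes. Median centring gave 4118 features (679 higher and 3439 lower) and 1 timing gene, hbl-1. The authors' table called 1 timing gene, lin-29, with hbl-1 at 0.23 on 4 values. Of batch settings, the slide series as a block gave 4609 features, which by its construction is the fit without Cy5 replicate 3. The later series alone gave 891 features and 0 timing genes, and averaging the shared mixture extract left 1 timing gene, hbl-1. The methods' linear model gave 56 features and 0 timing genes after Benjamini-Hochberg, and 583 and 1 (hbl-1) at an unadjusted p under 0.01. Leaving out each array in turn gave 535 to 4609 features, 0 to 2 timing genes and 5 to 81 other listed genes. A second set of 54 called genes took in hbl-1 and lin-29 and left out the dim pash-1 and ncr-2. Of this second set, 49 lost their call without Cy3 replicate 3 and 0 without Cy5 replicate 3. Without the poorly matching print blocks 2629 features and both timing genes were called. The cause of these changes was not tested.

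With the replicate number as a block (replicate block), 950 features and 1 timing gene (hbl-1) were called, and lin-29 had an adjusted p of 0.0665. Same-numbered arrays correlated at -0.138, -0.005 and -0.314 after removal of the orientation means, so none of these correlations was positive. Correlations over so few arrays cannot decide whether the numbers pair the samples. Low signal over background left lin-14, lin-46 and daf-12 without a fold.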
